A study of Drosophila melanogaster with 3 samples.

Results

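The genes described here are the fibroblast growth factor (FGF) system of Drosophila melanogaster: the 3 ligand genes bnl (branchless), pyr (pyramus) and ths (thisbe), the 2 receptor genes btl (breathless) and htl (heartless), and stumps, the gene of the adaptor protein that both receptors need. They were taken by symbol from the deposited table, and all 6 were found, among 17611 genes. The RNA came from wing imaginal discs, epithelial sacs of the larva from which the wing and the back of the adult thorax develop. Per the labels the larvae had the genotype w;apGAL4/+, with 1 copy of a GAL4 driver that follows apterous, a gene of the dorsal wing compartment. The labels also call this genotype wild type. The column names of the table carry the prefix w118, which is in no label, so that whether the values come from that stock is not certain. Wandering larvae, grown at 25 °C and aged about 5 days from laying, were used, and each of the 3 samples pooled 100 to 120 discs. There was 1 group and no other condition, so levels were compared between genes and between libraries, and not between treatments. The values are FPKM, fragments counted per kilobase of a gene's exons and scaled to the size of each library, so that levels of different genes can be set side by side per length. The libraries differed in RNA of other larval tissues: 4 gut markers, of which 2 reached 1 FPKM in each library, summed to 6.70, 868 and 384 FPKM in libraries 1, 2 and 3, and 6 fat body markers, all at that level, summed to 535, 893 and 2439 FPKM. The FGF values are therefore given per library, and calls that change when a library is left out are named.

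FGF receptors are receptor tyrosine kinases that, once a ligand binds, signal through Ras to the MAP kinase cascade. In flies the adaptor Stumps (also called Dof) links the activated receptor to that cascade. Branchless is the ligand of Breathless, and the pair is known for guiding the branching of tracheae, the air-carrying tubes of insects. Pyramus and Thisbe are the ligands of Heartless, which is known for spreading the embryonic mesoderm and acts in muscle precursors. On the wing disc, cells of the tracheal air sac primordium carry Breathless and grow along disc cells that make Branchless, while the adult muscle precursors (myoblasts) under the notum carry Heartless. A disc sample therefore holds ligand-making epithelium together with attached tracheal cells and myoblasts. In such a bulk sample, fewer cells of a type and less RNA per cell cannot be told apart.

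All 6 genes were expressed in every library. Each stood at 1 FPKM or more in all 3 libraries, a rule that 42.9% of the 17611 genes met. By limma's one-sided moderated test against 1 FPKM, with Benjamini-Hochberg adjustment, all 6 also lay above that level, as did 53.4% of the 13909 genes tested. From highest to lowest the mean levels ran stumps, htl, ths, pyr, btl and bnl. The highest was 12.5 and the lowest 1.28 FPKM. The median over all genes was 0.408 FPKM, and over the 7556 genes that met the 1 FPKM rule, called detected below, it was 20.6 FPKM. All 6 FGF genes thus lay above the median of all genes and below the median of the detected genes.

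**Figure D1:**
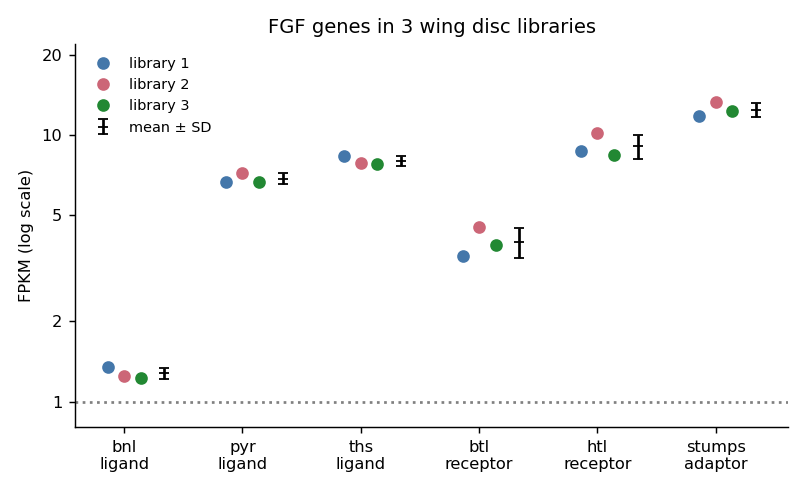
Level of each FGF gene in FPKM on a log axis. Coloured points are the 3 libraries, the black mark and bar are the mean and SD (n = 3), and the dotted line is 1 FPKM. stumps stood highest at 12.5 FPKM, and bnl lowest at 1.28 FPKM, just above the dotted line.

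Among the ligands, bnl was far below the others. bnl (FBgn0014135) stood at 1.35, 1.25 and 1.23 FPKM in libraries 1, 2 and 3, a mean of 1.28 ± 0.0653 FPKM (SD, n = 3). All 3 values lay close to each other and a little above 1 FPKM. The limma adjusted p against 1 FPKM was 0.00598, the largest of the 6 genes, and bnl ranked at percentile 0.516 of the detected genes. The value rests on 164, 148 and 140 recovered reads, 452 in all, which give an exact 95% Poisson interval of 1.16 to 1.40 FPKM for the mean. Such intervals cover counting error only. The coefficient of variation between libraries was 5.12%, against 8.15% from counting alone, so bnl varied no more than its read number gives.

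The Heartless ligands pyr and ths were expressed at levels near each other. pyr (FBgn0033649) stood at 6.70, 7.23 and 6.67 FPKM, a mean of 6.87 ± 0.316 FPKM (SD, n = 3). ths (FBgn0033652) stood at 8.37, 7.84 and 7.80 FPKM, a mean of 8.0 ± 0.318 FPKM (SD, n = 3). The lowest ths value lay above the highest pyr value, and the libraries ranked differently for the genes, since pyr was highest in library 2 and ths in library 1. Within libraries, ths exceeded pyr by 0.32, 0.12 and 0.22 on the log2 scale, a mean of 0.22 ± 0.10 (SD, n = 3). The limma adjusted p of this ratio was 0.0453, but leaving out any 1 library ended the call, with adjusted p of 0.108 without library 1, 0.0872 without library 2 and 0.169 without library 3. It was also lost with a pseudocount of 0.01 (adjusted p = 0.0575). ths exceeded pyr in 3 of 3 libraries.

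Against bnl, both Heartless ligands were clearly higher. The log2 ratio of ths to bnl was 2.55, 2.56 and 2.57 in libraries 1, 2 and 3, the steadiest of the 15 ratios between members, with a mean of 2.56 ± 0.01 (SD, n = 3; limma adjusted p = 4.54e-05). That of pyr to bnl was 2.34 ± 0.11 (limma adjusted p = 8.06e-05). As linear ratios of the mean levels, ths was 6.27 times and pyr 5.38 times as high as bnl.

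Of the receptors, htl was the higher. htl (FBgn0010389) stood at 8.70, 10.2 and 8.44 FPKM, a mean of 9.11 ± 0.939 FPKM (SD, n = 3). btl (FBgn0285896) stood at 3.53, 4.53 and 3.86 FPKM, a mean of 3.97 ± 0.512 FPKM (SD, n = 3). The receptors did not overlap, and both were highest in library 2. The log2 ratio of htl to btl was 1.28, 1.15 and 1.11 in the 3 libraries, with a mean of 1.18 ± 0.09 (SD, n = 3; limma adjusted p = 0.000445), or 2.29 times on the linear scale.

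The adaptor gene stumps was the highest of the 6. stumps (FBgn0020299) stood at 11.8, 13.3 and 12.3 FPKM, a mean of 12.5 ± 0.76 FPKM (SD, n = 3), with library 2 again the highest. It exceeded htl by a log2 ratio of 0.45 ± 0.08 (limma adjusted p = 0.00735) and btl by 1.63 ± 0.09 (limma adjusted p = 0.00016), each in 3 of 3 libraries. The call against htl was lost without library 3 (adjusted p = 0.102), where the log2 ratio was 0.41. The level of stumps was close to that of both receptors summed, with a mean of 13.1 FPKM for btl plus htl and log2 ratios of stumps to that sum of -0.05, -0.14 and 0.0016 in libraries 1, 2 and 3.

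Over all 15 pairs of members, 14 ratios passed limma's two-sided test at an adjusted p of 0.05, and each of the 15 had the same sign in 3 of 3 libraries. The test took the log2(FPKM + 0.1) ratio of every gene in the table to a member, and it called 95.0% of genes unlike pyr, 94.8% unlike ths, 95.4% unlike btl, 92.5% unlike htl and 92.6% unlike stumps. The share of member pairs called was therefore near the background. An exact permutation of signs gave p = 0.25 for every pair, the smallest that 3 libraries allow. The pair that did not pass was htl and ths, neighbours in the order. htl exceeded ths by log2 ratios of 0.06, 0.37 and 0.11, a mean of 0.18 ± 0.17 (SD, n = 3; limma SE 0.13, adjusted p = 0.246), and so a difference was not shown at this spread. The other neighbours in the order differed by log2 ratios of 0.45 for stumps over htl, 0.22 for ths over pyr, 0.78 ± 0.12 for pyr over btl (limma adjusted p = 0.00309) and 1.56 ± 0.23 for btl over bnl (limma adjusted p = 0.000118). The step from pyr to btl was no longer called without library 1 (log2 ratio 0.72, adjusted p = 0.0679) or library 3 (0.78, adjusted p = 0.0877), and that from htl to pyr, 0.40 ± 0.08 with all libraries (limma adjusted p = 0.0264), was no longer called without library 1 (log2 ratio 0.41, adjusted p = 0.321) or library 3 (0.43, adjusted p = 0.345). These ratios nearly kept their size. For htl to pyr the limma SE went from 0.12 to 0.39 without library 1 and 0.43 without library 3. In each of those 2 fits, the ratios of bnl, ths and btl to htl had the same SE, so it was not the spread of this pair alone. Without library 2 the SE of htl to pyr was 0.06, and the ratio was called (limma adjusted p = 0.0281).

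**Figure D2:**
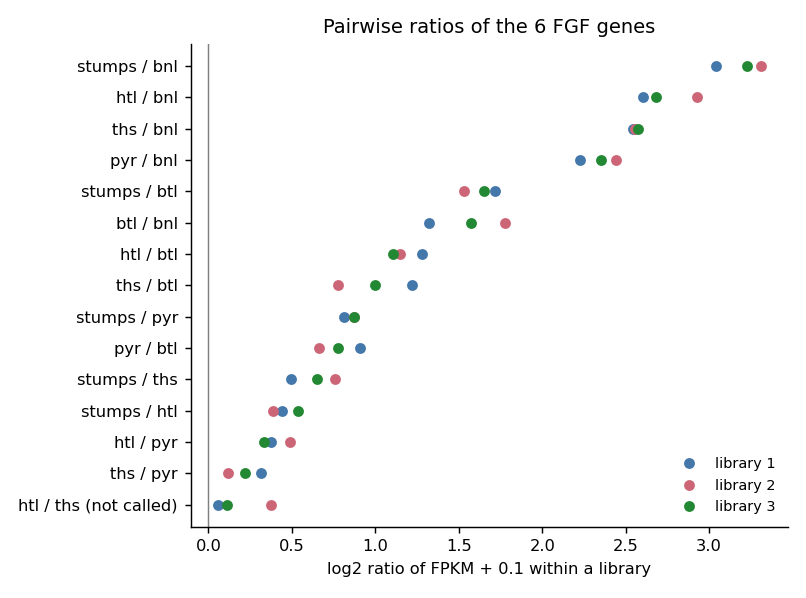
Log2 ratios of FPKM + 0.1 for all 15 pairs of FGF genes, the higher gene named first, with a point for each library and a grey line at equal levels. All points lie to the right of the line, and the htl to ths pair, with points from 0.06 to 0.37, has the smallest mean, 0.18, followed by ths to pyr, with points from 0.12 to 0.32 and a mean of 0.22.

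The ligands and receptors of each pair were then set side by side. bnl transcripts were fewer per length than those of its receptor gene in every library, with log2 ratios of bnl to btl of -1.32, -1.78 and -1.58. pyr lay under htl with a log2 ratio of -0.40 ± 0.08, and ths under htl with -0.18 ± 0.17 (SD, n = 3 each). Summed, the Heartless ligand genes reached 14.9 FPKM against 9.11 FPKM for htl, with log2 ratios of 0.78, 0.56 and 0.77. For comparison, spi, the main ligand gene of the epidermal growth factor (EGF) receptor, was higher than Egfr by a log2 ratio of 1.08 ± 0.06, at 165.7 against 78.4 FPKM. The other EGF ligand genes expressed here, Krn and vn, lay under Egfr by log2 ratios of -2.11 ± 0.08 and -2.59 ± 0.09. Of the PVF genes, whose receptor Pvr is related to vertebrate PDGF and VEGF receptors, Pvf2 stood at a log2 ratio to Pvr of 0.24 ± 0.06, Pvf1 at -2.28 ± 0.05 and Pvf3 at -3.39 ± 0.06. Whether these ratios differ between the FGF and the other systems was not tested.

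Within the receptor tyrosine kinases, the FGF receptor genes stood in the middle of the order. Of 20 such genes including the FGF receptors, htl ranked 10 and btl 11. The highest was drl, a Wnt5 receptor gene, at 103 ± 3.12 FPKM, followed by Egfr at 78.4 ± 1.87 FPKM and Eph, the ephrin receptor gene, at 62.7 ± 1.33 FPKM. Limma called 92.5% of all tested genes unlike htl, so most genes of any list would be called. Against htl, 8 of the 18 other genes were higher, 9 were lower and 1 was not called by limma. That 1 was InR, the insulin receptor gene and the next above htl, at 11.8, 11.0 and 11.3 FPKM, with a log2 ratio to htl of 0.32 (limma SE 0.14, adjusted p = 0.0732). Without library 2 this ratio was 0.43 and was called (adjusted p = 0.0187). Pvr at 15.7 ± 0.661 FPKM lay above htl by a log2 ratio of 0.78 (adjusted p = 0.00345), a call lost without library 1 (adjusted p = 0.0571) or library 3 (adjusted p = 0.121).

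Of all tested genes, limma called 95.4% unlike btl. Against btl, 9 of the 18 genes were higher, 7 were lower and 2 were not called. The 2 were the next below it. Tie stood at 3.32, 3.43 and 4.31 FPKM, with a log2 ratio to btl of -0.11 (limma SE 0.18, adjusted p = 0.583) that turned to 0.04 without library 2. Ddr, a discoidin domain receptor gene, stood at 3.22, 2.45 and 3.5 FPKM, with a log2 ratio to btl of -0.38 (limma SE 0.21, adjusted p = 0.127). Tie overlapped btl between libraries, while the highest Ddr value lay just under the lowest of btl. Below them came Nrk at 1.42 ± 0.232 FPKM, and 6 of the 18 genes did not reach 1 FPKM throughout, among them Alk at 0.615 FPKM, tor at 0.0741 FPKM and sev, the receptor of eye photoreceptor fate, at 0.0472 FPKM. Neither Alk nor its ligand gene jeb, at 0.0012 FPKM, was detected, nor was any of tor and its ligand genes Ptth and trk. In the EGF system 4 of 5 genes were detected, with the oocyte ligand gene grk at 0.285 FPKM, and in the PVF system 4 of 4.

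**Figure D3:**
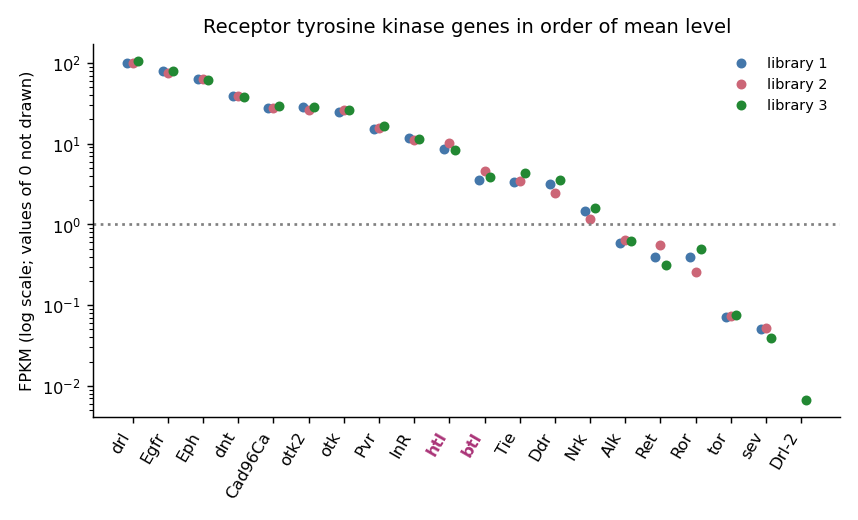
Receptor tyrosine kinase genes in order of mean level, in FPKM on a log axis, with a point for each library and a dotted line at 1 FPKM. The FGF receptor genes htl and btl, in colour, take places 10 and 11 of 20, between InR at 11.4 FPKM and Tie at 3.69 FPKM.

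The intracellular genes that FGF receptors signal through were mostly at higher levels than the receptor genes. All 12 genes of the Ras and MAP kinase cassette passed both the 1 FPKM rule and limma's test, with a median of 21.0 FPKM, near that of the detected genes as a whole. The counts of this and later lists stand beside 42.9% of all genes meeting the 1 FPKM rule. Limma's test was passed by 53.4% of the genes tested. Ras85D, the Ras GTPase gene, was highest at 142 ± 3.46 FPKM, and drk, the Grb2-type adaptor gene, stood at 72.6 ± 0.458 FPKM. The kinase genes Raf, Dsor1 (MEK) and rl (ERK) stood at 17.1 ± 0.926, 32.2 ± 1.6 and 13.6 ± 0.558 FPKM. csw, the gene of a Shp2-type phosphatase that acts with Stumps in FGF signalling, was the lowest at 8.78 ± 0.539 FPKM, below stumps and near htl. These genes serve other receptor tyrosine kinases as well.

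Target and feedback genes of the cascade were also expressed, 7 of 7 by both rules, with a median of 18.5 FPKM. aop, the gene of the repressor Yan, was highest at 40.1 ± 0.917 FPKM and pnt, the gene of the ETS activator of MAP kinase targets, lowest at 8.82 ± 0.511 FPKM. sty, the gene of Sprouty, an inhibitor first known from Branchless signalling in the trachea, stood at 18.4, 18.7 and 18.5 FPKM, with hardly any difference between libraries. Mkp3, the gene of a MAP kinase phosphatase, stood at 17.1 ± 1.57 FPKM.

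**Figure D4:**
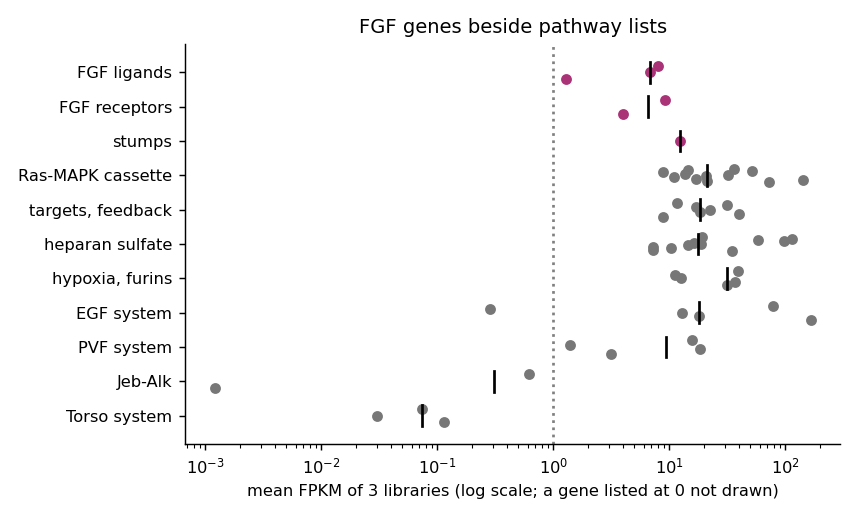
Mean level of each gene in FPKM on a log axis, by list, with the FGF genes in colour, a vertical bar at each list's median and a dotted line at 1 FPKM. The Ras and MAP kinase cassette has a median of 21.0 FPKM, while the FGF ligand genes have a median of 6.87 FPKM.

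Genes that make or carry heparan sulfate, the cofactor that holds FGFs at their receptors, were expressed in 11 of 12 cases by both rules, with a median of 17.7 FPKM. The core protein genes Sdc, dally and dlp were highest, at 114 ± 2.87, 97.1 ± 1.74 and 58.5 ± 1.19 FPKM. sfl, the sulfotransferase gene whose loss blocks FGF signalling in embryos, stood at 7.26 ± 0.839 FPKM. frc is listed at 0 in all 3 libraries. All of its annotated exon length (100%) lies under exons of Coq4 on the same strand, and how the counting treated such reads is not given in the sources used here. Among genes that act on bnl, sima, which encodes the hypoxia-inducible factor that raises bnl expression, stood at 31.6 ± 0.686 FPKM, its partner gene tgo at 37.2 ± 0.547 FPKM, and Hph, the gene of the prolyl hydroxylase that marks Sima for degradation, at 12.7 ± 0.385 FPKM. The furin genes Fur1 and Fur2 stood at 11.1 ± 0.182 and 39.5 ± 0.663 FPKM, and all 5 genes of this list were called by both rules.

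Markers of the cells that carry the receptors were present in every library. The 1 FPKM rule used for these counts was met by 42.9% of all genes. Of 9 tracheal markers all were detected, with the regulator genes trh at 16.2, 15.7 and 15.9 FPKM and dysf at 5.15, 4.88 and 4.98 FPKM. vvl, kni and knrl of that list also act in the disc epithelium. verm, pio, serp and Gasp stood above trh, at 235, 201, 81.4 and 63.9 FPKM, and above the wing marker vg at 62.1 FPKM. How much of these values came from tracheal cells was not tested, so the count of markers does not measure tracheal content. btl stood under trh by a log2 ratio of -1.99 ± 0.20 and under dysf by -0.33 ± 0.22 (SD, n = 3 each). Of 7 myoblast markers all were detected, with twi at 12.5, 12.7 and 11.8 FPKM and Him at 17.7, 18.3 and 19.9 FPKM. Ama and the gene how stood highest of this list, at 117 and 41.4 FPKM. The part of myoblasts in the values of this list was not tested. stumps lay at about the level of twi, with log2 ratios of -0.08, 0.07 and 0.07, and htl lay under twi by -0.44 ± 0.11 (SD, n = 3). Of 6 notum markers all were detected, from ara at 46.0 ± 1.47 FPKM down to tup at 10.4 ± 0.793 FPKM. ths lay under the notum gene eyg by a log2 ratio of -1.04 ± 0.09, and pyr under pnr by -1.01 ± 0.06. Of 7 wing epithelium markers all were detected, with vg at 62.1 ± 1.42 and nub at 52.7 ± 1.73 FPKM, and ap, the gene whose expression the driver follows, at 80.7 ± 1.78 FPKM.

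The receptor and adaptor genes were highest in library 2. btl, htl, stumps and pyr each had their highest value there, while bnl and ths were highest in library 1, and of the 7556 detected genes 33.0% were highest in library 2. Relative to its mean over the libraries, btl was 0.19 higher in library 2 on the log2 scale, htl 0.16, stumps 0.09 and pyr 0.07 higher. The coefficients of variation of btl and htl were 12.9% and 10.3%, against 4.95% and 3.22% from counting. The spread of htl on the log2 scale, an SD of 0.14, ranked at percentile 81.8 among the 500 genes nearest in level, that of stumps (0.09) at 66.0 and that of btl (0.18) at 59.2. The ligand genes ranked lower, at 26.6 for pyr, 27.8 for ths and 4.20 for bnl. The 500 genes were matched in level only, and not in exon length or read number, so these percentiles may also reflect read number. Around bnl the median SD of the 500 genes was 0.35, against 0.07 for bnl itself.

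The markers of the receptor-carrying cells did not all follow this order. The tracheal list had a median deviation of -0.02 in library 2, and trh and dysf were lowest there. btl relative to trh was highest in library 2 (log2 ratios of -2.17, -1.77 and -2.01). There btl was 0.19 above its mean on the log2 scale, while trh had a log2 SD of 0.02 over the libraries. The summed tracheal markers were 701, 716 and 751 FPKM in libraries 1, 2 and 3. Of these sums verm, the highest marker, gave 217, 235 and 253 FPKM, so they do not follow trh and dysf. The myoblast list had a median deviation of 0.04 in library 2, with 3 of 7 genes highest there, and summed to 207, 216 and 199 FPKM. Of these sums Ama, the highest marker, gave 116, 124 and 111 FPKM, and the next, the gene how, gave 42.9, 42.4 and 38.9 FPKM. Lists of other tissues moved more. The gut list had a median deviation of 2.72 in library 2, the largest of the 10 lists there, with 3 of 4 genes highest in that library. Of 6 hemocyte markers 5 were highest in library 2, with a median deviation of 0.16 and sums of 34.9, 42.0 and 34.6 FPKM, and all 5 larval muscle markers were highest there, with a median deviation of 0.41 and sums of 41.6, 67.1 and 53.6 FPKM. Of these lists 5 of 6 hemocyte and 4 of 5 larval muscle genes were detected. Of 4 neuronal markers 1 was detected, elav at 2.65 ± 0.0857 FPKM, and of 3 glial markers none, with repo at 0.0559 FPKM, and these lists summed to 3.63 to 3.90 and 0.394 to 0.704 FPKM. The part of these tissues in the library 2 values of btl, htl, stumps and pyr was not tested.

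**Figure D5:**
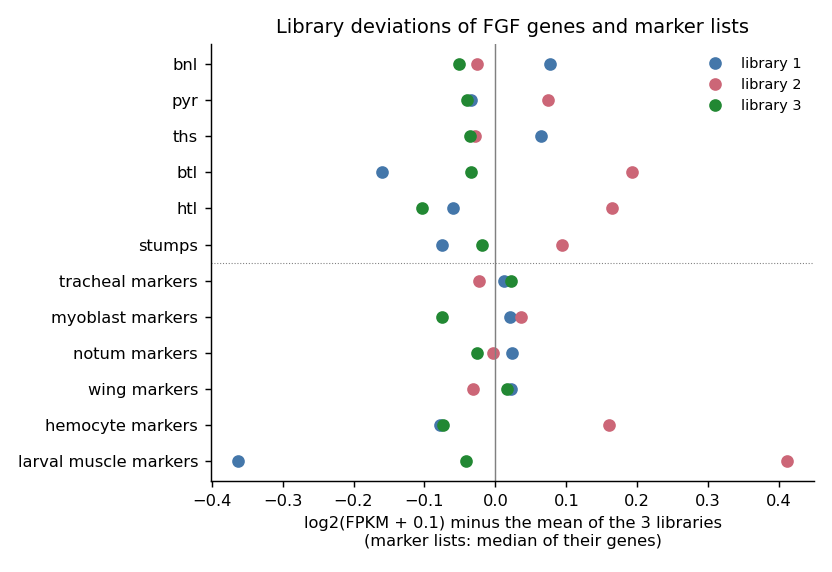
Difference of log2(FPKM + 0.1) in each library from the mean of the 3 libraries, for each FGF gene and, below the dotted line, as the median over each marker list. Library 2 is highest for btl (0.19), htl (0.16), stumps and pyr, and for the myoblast (0.04), hemocyte (0.16) and larval muscle (0.41) lists, and is lowest for the tracheal (-0.02) and wing (-0.03) lists. The gut, fat body, neuronal and glial lists, with 2.72, -0.06, -0.15 and 0.08 in library 2, are not drawn.

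The gene models bear on how these values are read. In dm6 coordinates bnl lies on chromosome 3R at 19794073 to 19836817, a span of 42745 bases that holds 4559 bases of merged exons. pyr and ths are neighbours on the same strand of chromosome 2R, at 11712263 to 11726345 and 11756817 to 11814424, 30471 bases apart with 0 genes of the table between them. They differ in size: the pyr exons cover 3212 bases and those of ths 8067 bases. The ionotropic receptor gene Ir48b, next to pyr on the other side, and Ir48c and CG13193, within the ths span, are listed at 0, CG42493 in that span stood at 0.0642 FPKM, while CG13192, the coding gene after ths, stood at 12.7 ± 0.409 FPKM.

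btl lies on chromosome 3L at 14075772 to 14083229, htl on 3R at 18045216 to 18052984 and stumps on 3R at 14577217 to 14608079. Because ths has the longest exons, the order of ths and htl depended on dividing by length: on recovered reads, ths with 5013 stood above htl with 2895, and the log2 ratio of ths to htl was 0.80 (limma adjusted p = 0.00998), against -0.18 per length. stumps had 5424 reads, pyr 1712 and btl 1223.

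The genes nearest to each member in level over the 3 libraries were found by Euclidean distance of log2(FPKM + 0.1). With 3 libraries of 1 group this measures level and library order only. Nearest to htl were TAF1C-like (8.86, 10.1 and 8.67 FPKM; distance 0.05) and CG32576 (distance 0.07). Nearest to stumps were MED16 (12.0, 13.2 and 12.4 FPKM; distance 0.03) and Aprt (0.06). Nearest to btl were CG3253 (3.65, 4.27 and 3.64 FPKM; distance 0.13) and CG31051 (0.15), the widest gaps of the 6. pyr was nearest to zuc and sona (distances 0.02 and 0.03), ths to CG14995 and LeuRS-m (0.04 and 0.05), and bnl to alpha-Est10 and lncRNA:CR45474 (0.07 and 0.09).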

How the data were processed

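RNA was extracted with TRIzol and sequenced as TruSeq libraries in 50 nt read pairs, per the labels' protocols. The authors deposited FPKM values, 1 column per library. The columns were matched to samples by number only, because their prefix, w118, is in no label. The submitters' processing notes name STAR 2.7.6a, featureCounts 1.6.0, DESeq2, CASAVA 1.8 and FastQC 0.11.8, and build dm6. For the annotation, the strand setting and shared reads, the settings were not given in the sources used here. FPKM times merged exon length (Ensembl release 115, BDGP6) gave whole reads (tolerance 0.01 read) for 99.7% to 99.8% of genes above 0, and for all 6 FGF genes, with 24873808 to 26264315 reads per library. They were used for depth and as an alternative only.

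Levels were tested with limma 3.58.1 (R 4.3.3) on log2(FPKM + 0.1), fitted on the 13909 genes above 0 in any library, one-sided against 1 FPKM, and two-sided on within-library ratios of every gene to a member, with Benjamini-Hochberg adjustment over all genes at 0.05. A ratio to a member carries that member's own spread. Fold changes on this scale understate those of genes near the pseudocount. The tests were run on simulated reads with the same dispersion for every gene, 40 genes per level. Of these, 5% at 1 FPKM and 100% at 1.5 FPKM were called above 1 FPKM. Against a reference at 5 FPKM, 5% of genes at 5 FPKM and 100% at 10 FPKM were called unlike it. Levels and ratios between these, tissue differences between libraries and fits with a library left out were not simulated. The labels do not say whether the samples came from separate cultures, so p-values measure only the spread between these 3 samples, which may be technical. The members, the 22 lists and the naming rule (all members; the highest, lowest and accountable genes of a list; neighbours in order) were chosen with earlier results of these data known. Of 131 list entries, 130 matched by symbol and 1 by a synonym. Genes named beside these, such as sty and drk, were chosen after their values were seen. Exon overlaps of the members with other genes are not reported here.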

Additional observations from a re-analysis of the deposited data

How the results depend on the processing

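The 6 FGF genes passed both detection rules under each alternative run, except that 4 of 6 reached a threshold of 5 FPKM. Rescaled to TPM, the mean levels became 2.43 for bnl, 13.1 for pyr, 15.2 for ths, 7.56 for btl, 17.3 for htl and 23.8 for stumps. With the longest transcript as length they were 1.35, 8.61 and 14.9 FPKM for bnl, ths and stumps, and moved by less than 1 SD for the others. Leaving out each library gave means of 1.24 to 1.30 FPKM for bnl, 6.68 to 6.96 for pyr, 7.82 to 8.10 for ths, 3.69 to 4.20 for btl, 8.57 to 9.44 for htl and 12.1 to 12.8 for stumps. Of 135 recomputed pair ratios, 124 kept their direction and call, 10 were no longer called and 1 reversed, the log2 ratio of ths to htl, 0.80 on reads not divided by length. The ratio of stumps to ths was among those no longer called, also on undivided reads (adjusted p = 0.316). Of the 18 other receptor tyrosine kinase genes, leaving out each library left 16 called unlike btl, as with all libraries, and 16 to 18 unlike htl, against 17. Depth limits bnl most, at 140 to 164 reads per library. No paired analysis was possible because there was 1 group only, so no samples could be paired across groups. The log2 ratios between genes were all taken within libraries, while the linear ratios were those of the mean levels.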
